A study of Homo sapiens with 12 samples.

Results

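Refed RPE-1 cells that received C646 were compared with refed cells that received the solvent, across all genes. RPE-1 is an established line of human retinal pigment epithelium. Cells of every group were deprived of both glucose and fetal calf serum (FCS) for 24 h. Refeeding lasted 4 h, in medium with 5 g/l glucose and 10% FCS, and included DMSO as the solvent in one group and 10 µM C646 in the other. The members are all genes measured in these groups. They come from 6 of the 12 libraries of the series, 3 per group. The other libraries are 3 of starved cells that were not refed and 3 of cells refed with 100 µM DMA (dimethyl amiloride). Of 43481 genes with a summed expected count, 15263 passed the filter on low counts and were tested. The labels do not say whether replicates were separate cultures, so p-values measure only the spread between these libraries, which may be technical.

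C646 is an inhibitor of p300 and CBP, histone acetyltransferases encoded by EP300 and CREBBP. These enzymes are recruited by transcription factors to enhancers and promoters, where they acetylate histones and other proteins, and p53, SMAD, NF-kappaB and E2F factors are among those known to work with them. Serum restores growth factor signalling in resting cells and leads them from rest through G1 towards DNA replication. DMA is an inhibitor of sodium-proton exchange and is not structurally related to C646. The inhibitors were used at different doses, and the DMA libraries serve here as a second treated group.

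Depth was 14910516 to 28968510 expected counts over the 12 libraries. It was 23472623 to 28968510 with solvent and 21929453 to 24784194 with C646. Spike-in sequences took 0.527% to 1.06% of the counts in these 6 libraries and mitochondrial genes 2.12% to 3.24%. On the first principal component of the 6 libraries, which held 34.0% of the variance, solvent replicate 1 stood apart at 54.3, against 14.5 and 8.36 for the other solvent libraries and -17.2, -25.0 and -34.9 for the C646 libraries. For genes called without the replicate block described below, calls that ended without that library are therefore given beside the genes and lists. For many genes called only with that block they are not given singly. Some mesenchymal and simple epithelial markers were present, led by VIM and KRT18. Of 8 mesenchymal markers 5, and of 6 epithelial markers 3, reached a mean of 1 CPM (counts scaled per 1000000) in each of the compared groups. Of 12 markers of retinal pigment epithelium 5 reached that mean in the solvent group. Their summed level was 37.5 to 66.4 CPM with solvent and 46.2 to 65.0 CPM with C646, and TYR had no count in either group. Summed endothelial markers stayed between 1.79 and 4.32 CPM and summed blood cell markers between 0.245 and 0.843 CPM in the compared libraries.

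Genes higher with C646 in refed cells included several antioxidant, heat shock and p53 target genes. A smaller set of lower genes included a few S-phase, inflammatory and ribosome biogenesis genes. At an adjusted p under 0.05 (edgeR's quasi-likelihood test on all 12 libraries, Benjamini-Hochberg adjustment over all genes tested), 185 genes passed the threshold, which is 1.21% of those tested. Of these, 124 were higher (0.812%) and 61 lower (0.400%) with C646. The median change was 1.10 on the log2 scale among the higher genes and -0.81 among the lower ones, and 90 genes changed by at least 1 (66 higher, 24 lower). In all 185 the 3 C646 libraries lay outside the range of the 3 solvent libraries, which held for 10.2% (C646 higher) and 11.6% (C646 lower) of all genes tested.

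Libraries with the same replicate number varied together, and a fit that takes the number as a block called 1199 genes (7.86%), 629 higher (4.12%) and 570 lower (3.73%). All 185 genes of the fit without the block were among them, with the same sign. Without solvent replicate 1, 24 genes passed (20 higher, 4 lower), and 321 with the block (208 higher, 113 lower). Scaling by the spike-in counts in place of the genes' own counts moved the median change of all genes from 0.01 to 0.13 and gave 100 genes past the threshold, 84 higher and 16 lower, of which 58 were among the 185, so that 84.0% of the calls were higher against 67.0% with the main scaling.

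By a fixed rule 130 genes are named, and 46 of them passed the threshold. Leaving out 1 library at a time, 9 of the 46 passed every time: HSPA4L, CCNG2, SLC43A2, HKDC1, PCLO, KRTAP2-3, CDKN1A, AKR1B10 and RNF150. Without solvent replicate 1, 34 of the 46 lost the call, and without C646 replicate 1, 33 did. Without C646 replicate 3, 27 did, without C646 replicate 2, 21, and without solvent replicate 2 or 3, 16 each. Spike-in scaling ended 18 of the 46 calls (4 with the block). With the block 33 of the 46 passed every time. The exceptions were CCNE2, FAM111B, ZNF367, WDR76, CDCA7, BUB1B, NOP58, DKC1, LATS2, BTG2 and MDM2 without C646 replicate 1, SLC7A11, RNF150, LATS2, BUB1B, BTG2 and MDM2 without solvent replicate 1, LATS2 without solvent replicate 2, and CCNE2, WDR76, BUB1B or BTG2 without C646 replicate 2 or 3. Their adjusted p then reached at most 0.179. Every change of the 46 kept its sign. Of the 130 named genes 107 passed with the block, and only 38 of these passed with it every time. Among the named genes not called without the block, 61 passed with it, and 9 did so without solvent replicate 1. Most calls made only with the block thus depended on single libraries.

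**Figure D1:**
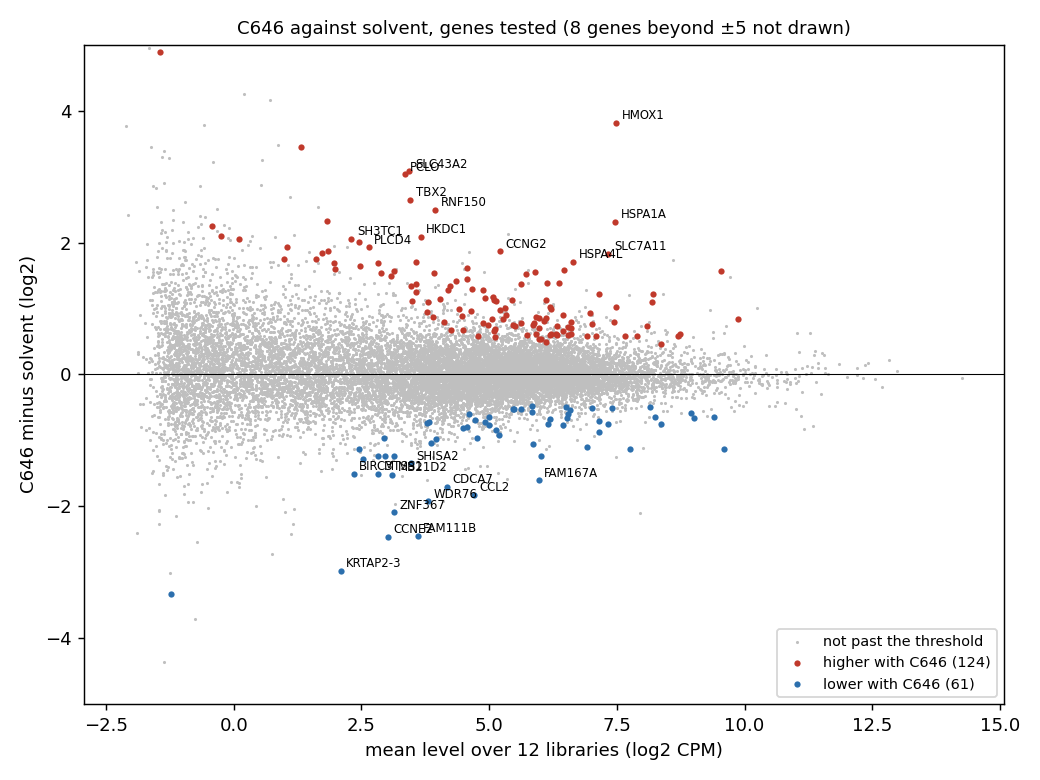
Each point is a gene tested, with its mean level over the 12 libraries (log2 CPM) on the x axis and the log2 difference between C646 and solvent on the y axis. Red points are the 124 genes higher with C646 and blue points the 61 lower, and the 12 largest changes in each direction among genes with a mean of at least 2 log2 CPM are named.

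Promoter sequences from RefSeq are shown for 3 genes that passed the threshold and whose promoters hold the letters searched: a glutathione synthesis gene, a heat shock gene that is in none of the lists, and a gene in none of the lists whose RNA fell with S-phase genes. Each is the 250 bases before the gene's start, given 5′ to 3′ on the gene's strand, from the table's build GRCh38.p14. Capitals mark letters found by search on both strands. These were an antioxidant response element (TGACNNNGC) for GCLM at chr1:93909431-93909680 on the minus strand, a heat shock element (TTC, GAA and TTC, or GAA, TTC and GAA, each 2 bases apart) for HSPA6 at chr1:161524290-161524539 on the plus strand, and E2F letters (TTTGGCGC, TTTCCCGC, TTTGGCGG or TTTCGCGC) for ZNF367 at chr9:96418371-96418620 on the minus strand. The 3 promoters were picked after their genes' values and matches were seen.
GCLM: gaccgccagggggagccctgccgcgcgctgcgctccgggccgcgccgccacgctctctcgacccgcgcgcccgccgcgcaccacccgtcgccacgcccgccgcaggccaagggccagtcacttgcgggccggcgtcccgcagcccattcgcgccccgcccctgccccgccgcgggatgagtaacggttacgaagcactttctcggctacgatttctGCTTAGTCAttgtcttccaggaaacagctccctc
HSPA6: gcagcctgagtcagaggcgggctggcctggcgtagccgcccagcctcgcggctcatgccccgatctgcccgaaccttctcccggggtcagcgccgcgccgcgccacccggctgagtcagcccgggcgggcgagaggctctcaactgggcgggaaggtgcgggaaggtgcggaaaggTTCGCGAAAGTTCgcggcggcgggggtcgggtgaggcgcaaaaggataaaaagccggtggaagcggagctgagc
ZNF367: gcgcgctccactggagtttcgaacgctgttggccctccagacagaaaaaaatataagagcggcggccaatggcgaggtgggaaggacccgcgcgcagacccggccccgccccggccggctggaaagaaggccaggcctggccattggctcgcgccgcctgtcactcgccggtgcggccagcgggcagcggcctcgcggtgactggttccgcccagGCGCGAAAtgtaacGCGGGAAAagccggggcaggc

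The shares below are for the 250 bases before the start. Among all 27305 promoters in the table, 11.0% hold the antioxidant letters, 0.439% the heat shock letters and 2.91% the E2F letters. For the 124 genes higher with C646, 94 promoters were matched by symbol. Of these, 12.8% held the antioxidant letters, 4.26% the heat shock letters (4 promoters, those of ABHD3, DOCK10, FBXW10 and HSPA6) and 1.06% the E2F letters. For the 61 lower genes, 43 promoters were matched, and 4.65%, 0.00% and 11.6% held the same letters, the last in 5 promoters (CDCA7, CPSF3, PAQR4, SMC6 and ZNF367). Over the 11345 matched promoters of genes tested the shares were 12.1%, 0.335% and 4.59%. A match is a stretch of letters and not a measured binding site.

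The antioxidant genes regulated by NRF2 made up the group with the most calls. NRF2 is a transcription factor that is degraded in unstressed cells and, when stabilised by oxidants or electrophiles, switches on glutathione synthesis, NADPH supply and quinone and heme detoxification. Of 27 members tested, 7 rose (background 0.812%), none fell, and the median change was 0.84, against 0.01 over all genes tested. In the fit with the replicate block 19 rose (background 4.12%) and none fell. All 27 had a positive change.

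HMOX1, which encodes heme oxygenase 1 (chromosome 22, 35380361 to 35394214 in GENCODE 29 on GRCh38), had 26.9, 28.5 and 44.7 CPM in the solvent libraries and 309.7, 269.7 and 825 CPM in the C646 libraries. The groups did not overlap, which the rule for naming the largest changes required, and the lowest C646 library was the second. The rise was 3.81 ± 0.52 on the log2 scale (SE, adjusted p = 0.00764), the largest among the named genes, and leaving out 1 library at a time gave changes of 3.12 to 4.09 with adjusted p up to 0.0627 (up to 0.00240 with the block). Starved cells, at 157, 98.5 and 291 CPM, had more than solvent-refed cells, and DMA-treated cells had 23.8, 35.5 and 49.4 CPM, near the solvent values. The difference between C646 and DMA was 3.69 ± 0.51 (adjusted p = 0.00449).

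GCLM and GCLC are the subunits of glutamate-cysteine ligase, the enzyme that limits glutathione synthesis, and SLC7A11 is the cystine carrier that feeds it. GCLM stood at 64, 58.8 and 71.9 CPM with solvent and 136, 172 and 272 CPM with C646, without overlap, a rise of 1.58 ± 0.27 (adjusted p = 0.0214). SLC7A11 went from 61.2, 67.8 and 121 CPM to 227, 217 and 445 CPM, a rise of 1.83 ± 0.38 (adjusted p = 0.0404). Neither passed without solvent replicate 1 (adjusted p = 0.115 for GCLM and 0.201 for SLC7A11), and with the block GCLM passed (0.0151) and SLC7A11 did not (0.0512). GCLC had 29.3, 28 and 45.3 CPM with solvent and 63.8, 80.2 and 165 CPM with C646, and its change of 1.59 passed the threshold only with the block (adjusted p = 0.0524 without it and 1.91e-04 with it). In all 3 genes the third library was the highest of each of these groups. GCLC, like the other members of this list named in the next paragraph apart from AKR1B10 and SQSTM1, was named after its values were seen.

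AKR1B10, an aldo-keto reductase, rose from 1.16, 2.00 and 2.34 CPM to 8.99, 7.50 and 10.9 CPM, by 2.32 ± 0.33 (adjusted p = 0.00711), and stayed past the threshold without any single library. Reads of AKR1B10 are uncertain, since 31.3% of its 31-base words occur in other genes. The ferritin light chain FTL, the iron storage subunit, rose by 0.84 (from 602, 821 and 761 to 1493, 1208 and 1216 CPM, also uncertain), the aldo-keto reductase AKR1C3 by 1.41 and PGD, an NADPH-producing enzyme of the pentose phosphate pathway, by 0.61. FTL, AKR1C3 and PGD passed only with the block without solvent replicate 1 (adjusted p = 0.132, 0.0757 and 0.122 without it), as did FTL and PGD with spike-in scaling. With the block, TXNRD1 (thioredoxin reductase) was higher by 0.64, GSR (glutathione reductase) by 0.88, and the sulfiredoxin gene SRXN1 and the autophagy receptor gene SQSTM1, both uncertain in their reads, by 1.70 and 1.07. TXNRD1 was the most abundant of these, at 2227, 2078 and 2768 CPM with solvent and 3387, 3479.7 and 4081 CPM with C646, with no overlap. NQO1, TXN and FTH1 did not pass in either fit.

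Between C646 and DMA, 441 genes passed (2.89%), 297 higher with C646 and 144 lower. Of the 27 members 15 were higher with C646 and none lower, where the background was 1.95% higher and 0.943% lower. The list's median difference between C646 and DMA was 1.06, and that between DMA and solvent was -0.15. Leaving out solvent replicate 1 took the members that rose against solvent from 7 to 1 (12 with the block), with a median of 0.73. Of the 18 members with a matched promoter 4 held the antioxidant letters, 22.2% against 12.1% of genes tested. Members were picked as NRF2 targets, so that share describes the list and not a change with C646.

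Genes of the heat shock response, the cytosolic chaperones and co-chaperones controlled by HSF1, were higher as well. Of 21 members 3 rose and none fell without the block, 13 rose and none fell with it, and the median change was 0.52. The background of rises was 0.812% without the block and 4.12% with it. HSPA4L, a chaperone of the HSP110 family (chromosome 4, 127781821 to 127840733), had 69.7, 71.2 and 64.3 CPM with solvent and 233, 176 and 262 CPM with C646. The solvent values were close together and every C646 value was well above them, a rise of 1.71 ± 0.18 (adjusted p = 0.00125) that passed without any single library. Starved cells had 26.5, 24.7 and 21.3 CPM, so the gene stood lower before refeeding and highest in refed cells with C646.

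HSPA1A, the inducible HSP70 gene, had 67.3, 162 and 55.5 CPM with solvent and 595, 586 and 234 CPM with C646. The second solvent library was high and the third C646 library low. The groups did not overlap, which the rule for naming the largest changes required. HSPA1A changed by 2.31 ± 0.50 (adjusted p = 0.0488, 4.74e-04 with the block). It missed the threshold without solvent replicate 1 (adjusted p = 0.221, 2.32e-04 with the block) and with DESeq2's size factors (0.0531). HSPA1A and its neighbour HSPA1B share most of their sequence (73.6% and 74.4% of their 31-base words occur in other genes), so the division of reads between them is uncertain. HSPA1B, at 379, 825 and 829 CPM with solvent and 1318, 2128 and 2202 CPM with C646, was higher by 1.51 with the block. It and the further heat shock genes named here, apart from STIP1 and CRYAB, were named after their values were seen.

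STIP1, the co-chaperone that links HSP70 to HSP90, rose by 0.46 (from 370.2, 361 and 332 to 506, 475 and 479.9 CPM). STIP1 passed only with the block when solvent replicate 1 was left out (adjusted p = 0.130 and 0.0291) or spike-in scaling was used (1.00 and 0.0130). In the fit with the block, HSPH1 (HSP110) was higher by 0.98, the HSP40 co-chaperones DNAJB4 and DNAJA1 by 0.78 and 0.57, and the small heat shock genes HSPB1 and CRYAB by 1.21 and 1.74, the reads of CRYAB being uncertain. HSPA8, the constitutive HSP70, and HSP90AB1 passed in neither fit. Outside the list, HSPA6, a strictly inducible HSP70 gene whose promoter is printed above, had 29.4, 34.8 and 28.8 CPM with solvent and 82.1, 76.1 and 108 CPM with C646, a rise of 1.52 ± 0.21 (adjusted p = 0.00693), with 56.7% of its words shared with other genes. With DMA HSPA6 stood at 42.8, 80.6 and 50.5 CPM, also above solvent (log2 0.90, adjusted p = 0.0444). C646 and DMA were not separated at HSPA6 (0.61 ± 0.20, adjusted p = 0.132). HSPB8, another small heat shock gene outside the list, rose by 1.37 ± 0.20, from 37.1, 46.8 and 29.9 to 115, 88.1 and 90.8 CPM, and stood at an adjusted p of 0.0545 without solvent replicate 1 (0.00324 with the block).

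Of the 21 heat shock genes, 14 were higher with C646 than with DMA (background 1.95%) and none lower (background 0.943%), and the median difference was 0.85. DMA against solvent had a median of -0.18. When solvent replicate 1 was left out, 1 member passed against solvent (6 with the block) at a median of 0.49. Of all 15647 genes tested in those fits, 24 passed (321 with the block). Leaving out C646 replicate 1 or 3 left 4 calls with the block, beside 259 of 15623 and 497 of 15616 genes tested.

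p53 target genes formed the other group with several rises. p53 is a transcription factor stabilised by damage and nucleolar stress that is known to use p300 and CBP as coactivators and to induce CDKN1A, an inhibitor of cyclin-dependent kinases, and MDM2, the ligase that degrades p53 itself. Of 26 members 5 rose (background 0.812%) and none fell, 12 rose with the block (background 4.12%) and none fell, and the median change was 0.55. All 26 had a positive change.

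CDKN1A (chromosome 6, 36676460 to 36687339) had 335, 364 and 529 CPM with solvent and 1457, 948 and 1220.1 CPM with C646, without overlap. The means were 409 ± 104 CPM and 1208 ± 254 CPM (SD, n = 3 each), a rise of 1.56 ± 0.22 (adjusted p = 0.00739) that passed without any single library. In DMA-treated cells the level was 1089, 958 and 929 CPM, also above solvent (log2 1.28, adjusted p = 0.0182), and C646 differed from DMA by 0.28 ± 0.21 (adjusted p = 0.557). A difference of this size was not separated from 0.

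MDM2 rose by 1.22 ± 0.24, from 203, 186 and 295 CPM to 505, 332 and 754 CPM, with its lowest C646 library close to the highest solvent library. BTG2, an antiproliferative early-response gene, rose by 1.16 (from 16.7, 22.7 and 20.9 to 51.4, 33.4 and 50.4 CPM), and TP53INP1, a p53-induced nuclear protein, by 0.91 (from 63.7, 62.7 and 78.4 to 169.5, 105 and 109 CPM). The death receptor gene FAS, named after its values were seen, rose by 0.77 and was the single member also higher than with DMA (log2 0.70, adjusted p = 0.0348). BTG2 stood at 46.9, 49.5 and 41.1 CPM with DMA, and its difference between C646 and DMA was -0.03 ± 0.22. The list's median difference was -0.02 between C646 and DMA and 0.47 between DMA and solvent. A single member passed without solvent replicate 1 (3 with the block), and the same numbers held without C646 replicate 1. With spike-in scaling 2 members passed, CDKN1A and MDM2, and 11 with the block.

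**Figure D2:**
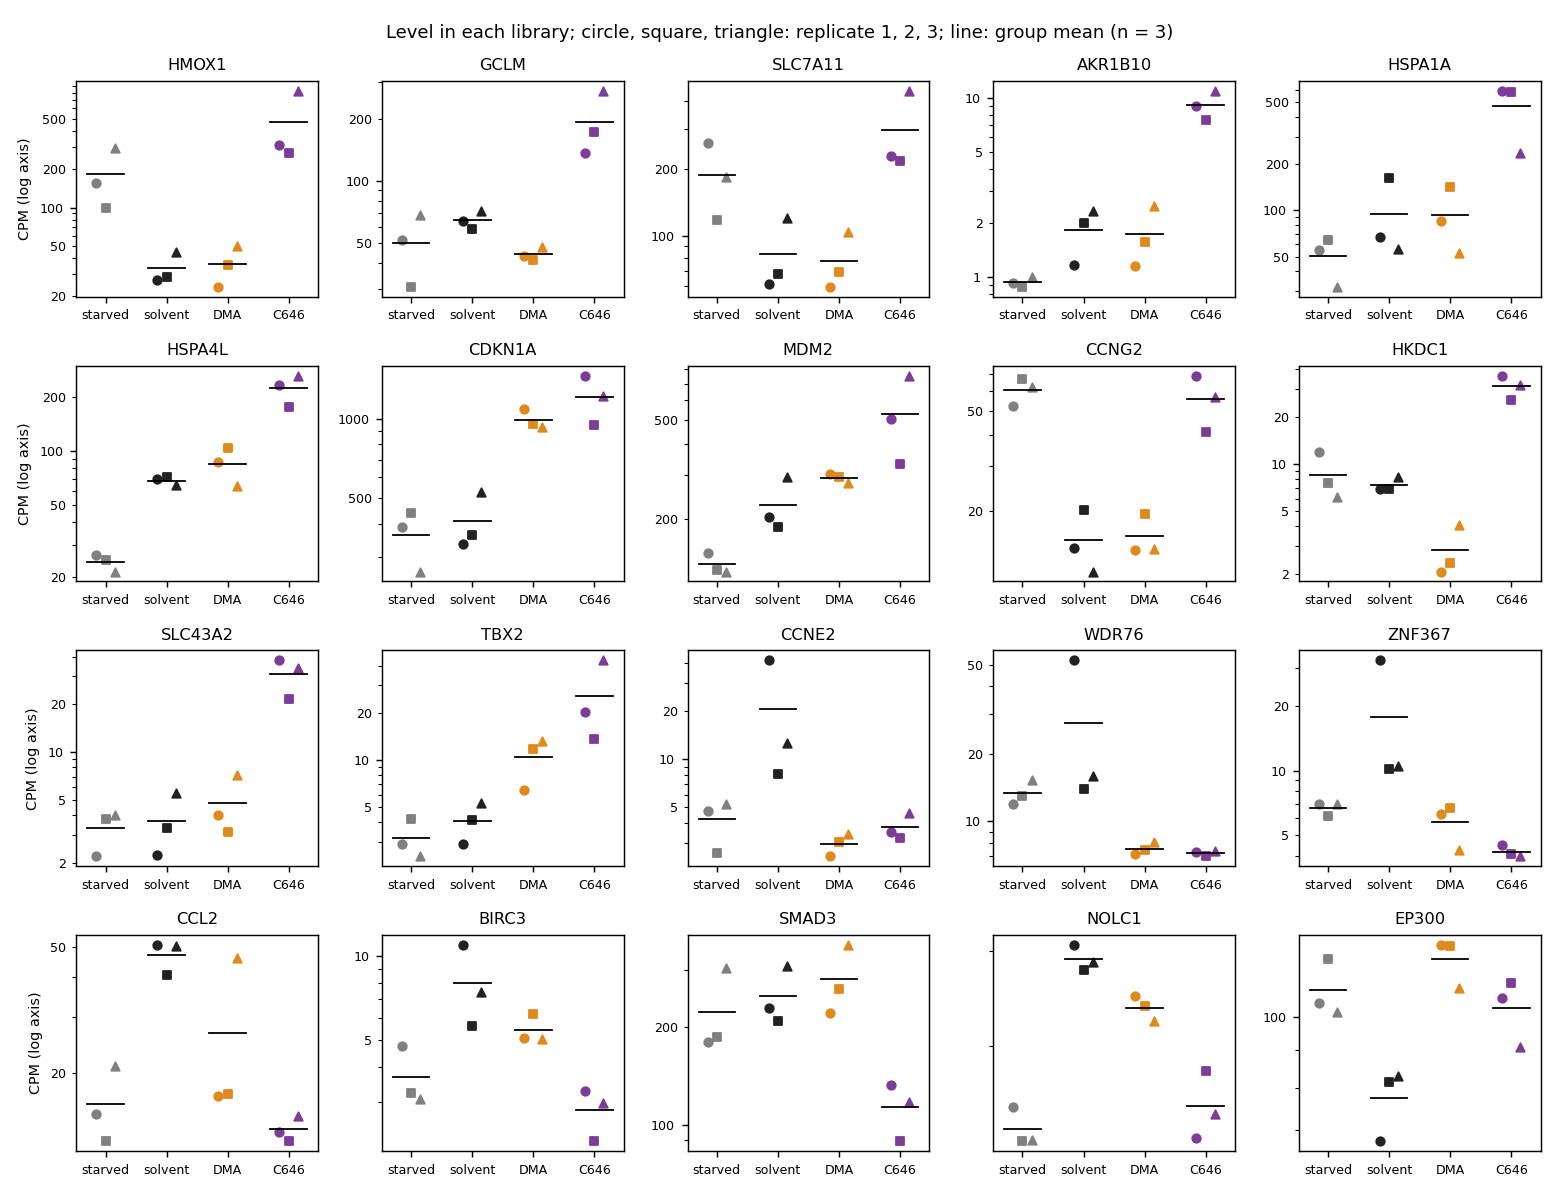
Level (CPM, log axis) of 20 genes in each of the 12 libraries, in starved, solvent, DMA and C646 groups, with the replicate number given by the marker and the group mean by a line. HMOX1, GCLM, AKR1B10, HSPA4L, CCNG2, HKDC1 and SLC43A2 were higher in all 3 C646 libraries than in any solvent or DMA library, while CCNE2, WDR76 and ZNF367 had a solvent library 1 far above the others.

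Genes that resting cells express in excess gave a smaller group. Of 23 resting-cell and FOXO targets 2 rose, CCNG2 and YPEL2 (background 0.812%), and 6 rose with the block (background 4.12%), with a median of 0.39. CCNG2 encodes an unconventional cyclin linked to cell cycle exit. It had 52.3, 66.9 and 62.2 CPM in starved cells, 14.2, 20.1 and 11.4 CPM in solvent-refed cells, 13.9, 19.4 and 14.1 CPM with DMA and 69, 41.3 and 56.5 CPM with C646, so that the C646 libraries lay near the starved level and above both other refed groups (log2 1.87 ± 0.23 against solvent, adjusted p = 0.00616, and 1.81 ± 0.23 against DMA, adjusted p = 0.00224). YPEL2 followed the same order at 13.6, 12.9 and 15.4 CPM starved, 3.37, 3.75 and 2.21 CPM with solvent and 11.4, 7.78 and 7.91 CPM with C646 (log2 1.53 ± 0.27). YPEL2 without solvent replicate 1 passed only with the block (adjusted p = 0.0767 and 0.0174). CDKN1B, the p27 inhibitor, was at 42.8, 57.7 and 51.4 CPM with solvent and 48.7, 55.1 and 42.7 CPM with C646 (log2 -0.05 ± 0.19, adjusted p = 0.925).

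A list of MondoA and glucose-responsive genes held 2 rises among 9 members (background 0.812%). MondoA is a factor that senses sugar phosphates, and not every member is known as its target. HKDC1, a hexokinase-domain protein, had 6.92, 6.96 and 8.20 CPM with solvent and 36.6, 25.4 and 31.8 CPM with C646 (log2 2.09 ± 0.28, adjusted p = 0.00687). With DMA it was lower than with solvent, at 2.06, 2.32 and 4.09 CPM, so that C646 and DMA differed by 3.47 ± 0.30 (adjusted p = 1.45e-04). ARRDC3, an arrestin-domain protein, rose by 1.38, from 45.1, 50.9 and 57.6 to 115, 100.0 and 185 CPM, and without solvent replicate 1 it passed only with the block (adjusted p = 0.201 and 0.0135). TXNIP, the best known target, had 36.7, 25.9 and 80.7 CPM with solvent and 89.6, 58.7 and 225 CPM with C646, overlapping, with the third library highest in both groups, and passed only with the block (1.33, adjusted p = 0.0112, against 0.241 without it). In the same edgeR fit, solvent-refed and starved cells were not separated at HKDC1 (log2 -0.22, adjusted p = 0.601) or ARRDC3 (-0.32, 0.458). TXNIP was higher in solvent-refed than in starved cells (2.51, 0.0110).

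Lysosomal genes of the TFEB programme shifted slightly. Of 31 members 2 rose (background 0.812%), 7 rose with the block (background 4.12%) and none fell in either, with a median of 0.28 and 29 positive changes. GLA (alpha-galactosidase) rose by 1.12 ± 0.18, from 32.3, 29.2 and 27 to 64.1, 48.1 and 79.9 CPM, and CTSL (cathepsin L) by 0.60 ± 0.11, from 70.1, 84.4 and 65.9 to 113, 111 and 111 CPM. CTSL passed only with the block without solvent replicate 1 (adjusted p = 0.0989 and 0.0206) and with spike-in scaling (0.844 and 0.00365). Circadian clock genes had 7 rises and 1 fall of 17 with the block (background 4.12% and 3.73%) and none without it, with a median of 0.57. In edgeR's test without the block 9 had an unadjusted p under 0.05, and DESeq2's Wald test called 3 higher. Of all 15263 genes tested, 2567 had such a p and DESeq2's test called 467 higher. Among them TEF, a PAR-domain clock output factor, had 3.37, 7.33 and 11 CPM with solvent and 17.4, 17 and 17.9 CPM with C646, and NR1D2 (REV-ERB beta) 36.1, 36.3 and 35.2 CPM and 68.8, 56.1 and 48.6 CPM. No clock gene passed in either fit without solvent replicate 1.

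Other large rises fell in none of these groups. SLC43A2, a carrier of large neutral amino acids, had 2.25, 3.33 and 5.48 CPM with solvent and 37.9, 21.6 and 33.7 CPM with C646, a rise of 3.08 ± 0.39 (adjusted p = 0.00616). PCLO, a presynaptic scaffold protein, rose by 3.03 ± 0.41, from 4.36, 3.17 and 2.63 to 31.8, 16.3 and 35.4 CPM, and RNF150, a transmembrane RING-finger protein, by 2.50 ± 0.36, from 8.08, 6.75 and 6.25 to 38.2, 18.1 and 63.3 CPM. All 3 passed without any single library (RNF150 not with the block, at an adjusted p of 0.0566 without solvent replicate 1), and their levels with DMA were at most 10.6 CPM. TBX2, a repressor of the T-box family that is expressed in the developing eye, rose by 2.65 ± 0.42, from 2.92, 4.13 and 5.27 to 20.3, 13.5 and 43.2 CPM, with DMA-treated cells in between at 6.38, 11.8 and 13.2 CPM. PLCD4, a phospholipase C, rose by 1.93, and SH3TC1 by 2.06. Leaving out solvent replicate 1 ended the calls of TBX2, PLCD4 and SH3TC1 (adjusted p = 0.0828, 0.0959 and 0.154), but not with the block (0.0262, 0.0262 and 0.0204). The smallest adjusted p of the comparison belonged to MAP1A, a microtubule-associated protein named for that after the values were seen: 31.5, 39.1 and 37.1 CPM with solvent against 104, 97.9 and 115 CPM with C646 (log2 1.56 ± 0.13, adjusted p = 3.00e-04). Its libraries were tight in both groups. Of the 12 largest rises, TBX2 alone did not also pass against DMA (1.29 ± 0.40, adjusted p = 0.108).

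**Figure D3:**
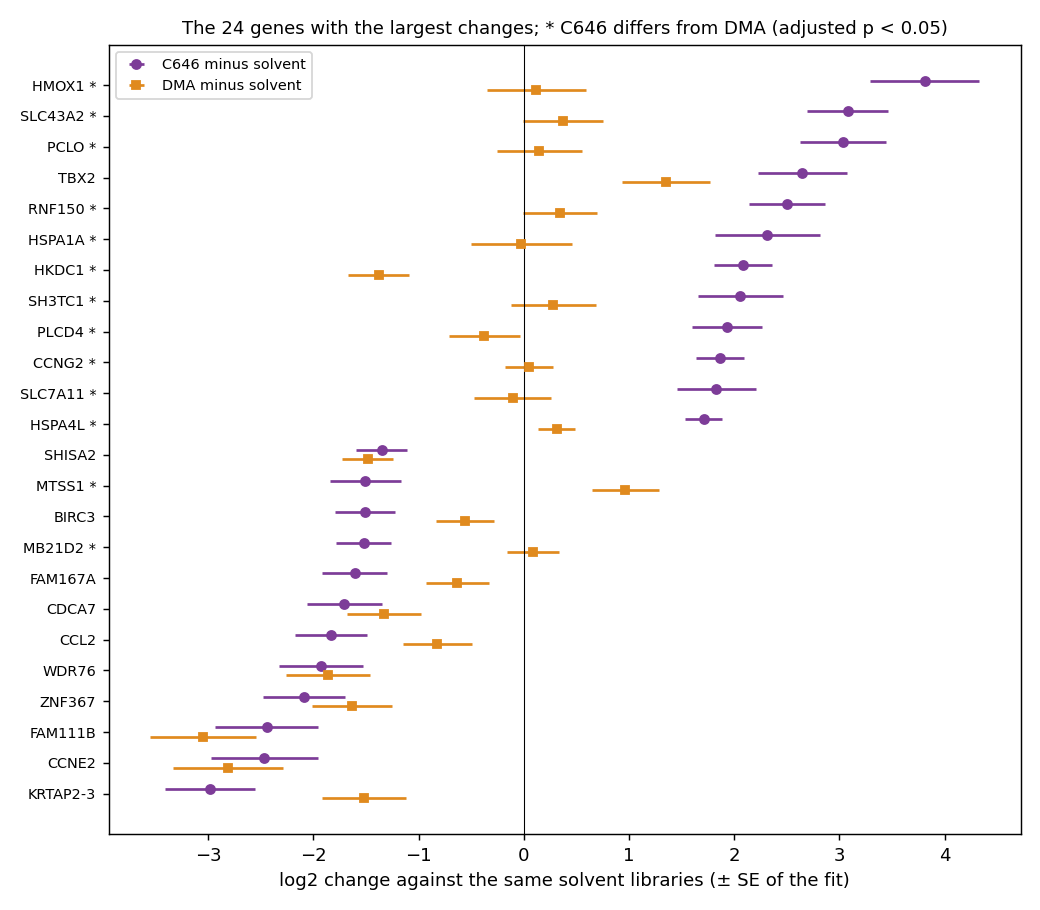
Log2 change against the solvent libraries (x axis, ± SE of the fit) with C646 (circles) and with DMA (squares) for the 12 largest rises and the 12 largest falls with C646, 1 gene per row. An asterisk marks genes at which C646 differed from DMA, 11 of the 12 rises and 2 of the 12 falls (MTSS1 and MB21D2), and both sets of changes share the solvent libraries.

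The largest falls included genes of S-phase entry. CCNE2 encodes cyclin E2, the partner of CDK2 at the start of S phase, FAM111B a protease family member expressed in S phase, ZNF367 a zinc-finger factor, CDCA7 a chromatin protein and E2F and MYC target, and WDR76 a repeat protein of the replication list. CCNE2 had 41.8, 8.04 and 12.6 CPM with solvent and 3.48, 3.23 and 4.62 CPM with C646 (log2 -2.47 ± 0.51, adjusted p = 0.0402). Of the exonic length of CCNE2 37.1% overlaps another gene, so its reads are uncertain. WDR76 had 52.3, 14 and 15.9 CPM with solvent and 7.29, 6.98 and 7.40 CPM with C646 (log2 -1.92 ± 0.40). In each of the 5 genes the first solvent library was far above the others. The C646 libraries lay below all 3 solvent libraries, which the rule for naming the largest changes required.

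FAM111B fell by 2.44, from 65.8, 13.5 and 19.3 to 5.97, 4.92 and 7.27 CPM, ZNF367 by 2.09, from 32.7, 10.1 and 10.5 to 4.48, 4.07 and 3.98 CPM, and CDCA7 by 1.70, from 59.1, 18.8 and 25.9 to 11.6, 11.7 and 8.50 CPM. Without solvent replicate 1 the changes were -1.45 for CCNE2, -1.44 for FAM111B, -1.31 for ZNF367, -1.05 for WDR76 and -1.07 for CDCA7, and ZNF367 and WDR76 passed (adjusted p = 0.0492 and 0.0490) while CCNE2, FAM111B and CDCA7 did not (0.118, 0.0659 and 0.118). All 5 passed with the block without that library, at adjusted p of 0.00567 to 0.0142. DMA-treated cells also had low levels: CCNE2 stood at 2.46, 3.04 and 3.38 CPM, FAM111B at 5.22, 3.80 and 2.95 CPM and WDR76 at 7.18, 7.42 and 8.08 CPM. C646 and DMA differed at CCNE2 by 0.35 ± 0.52, at FAM111B by 0.60 ± 0.49 and at WDR76 by -0.07 ± 0.40, none past the threshold. Starved cells had 12, 13 and 15.3 CPM of WDR76, more than refed cells with C646.

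Across the whole list of DNA replication genes and E2F targets, 1 of 37 members fell (WDR76, background 0.400%) and none rose, 11 fell with the block (background 3.73%), and the median change was -0.72, with 34 negative. The median ratio within a number was -1.38 for the first pair, -0.24 for the second and -0.39 for the third, so the first pair was far from the others. CLSPN, the checkpoint mediator claspin, had 34.6, 10.0 and 11.9 CPM with solvent and 7.46, 5.93 and 6.12 CPM with C646, and MCM3, a subunit of the replicative helicase, 167, 70.2 and 80.0 CPM and 48.5, 51 and 50.6 CPM. POLA2, a subunit of the primase complex with uncertain reads, had 37.3, 15.3 and 16.9 CPM and 11.3, 10.4 and 11.6 CPM, and the sliding clamp gene PCNA, named after its values were seen, 166, 105 and 124 CPM and 106, 77.5 and 81.3 CPM. All 4 passed with the block only, with adjusted p of 0.0331, 0.0361, 0.0216 and 0.0108.

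In the absence of solvent replicate 1 the replication list held 1 fall (2 with the block) at a median of -0.38, and without C646 replicate 3 it held none in either fit. With spike-in scaling the median was -0.45, with 1 fall (12 with the block). No member differed between C646 and DMA, where the median difference was -0.07. E2F1 itself was at 27.3, 12.5 and 12.6 CPM with solvent and 8.08, 8.27 and 9.64 CPM with C646 (log2 -1.01 ± 0.27, adjusted p = 0.0782, 0.0486 with the block). CCND1, the serum-induced cyclin D1, had 1577, 1186 and 1300.0 CPM and 1289, 979 and 637 CPM (adjusted p = 0.403). Of the 31 replication genes with a matched promoter, 13 held the E2F letters, 41.9% against 4.59% of genes tested. E2F targets were picked for this list, so that share describes the list and not a change with C646.

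Mitosis genes had a median of -0.63, with all 33 changes negative. BUB1B, a spindle checkpoint kinase, fell (55.1, 30.5 and 38.1 CPM with solvent, 19.5, 22.1 and 23.9 CPM with C646, log2 -0.92 ± 0.21, adjusted p = 0.0498) and 8 members fell with the block, among them CCNA2 and TOP2A. Over all genes tested 0.400% fell without the block and 3.73% with it. The pair medians were -1.17, -0.24 and -0.29, and without solvent replicate 1 no mitosis gene passed in either fit. With spike-in scaling the median was -0.39 and none passed (4 with the block), and BUB1B also missed the threshold with DESeq2's size factors (adjusted p = 0.0531). The mitosis list had a median of -0.63 between C646 and DMA and -0.02 between DMA and solvent. The difference between C646 and DMA passed for 3 of 33 genes (background 0.943%): AURKA, CCNB2 and PRC1. AURKA, the mitotic kinase named after its values were seen, had 65.5, 56 and 58.5 CPM with DMA and 25.7, 29.2 and 32.9 CPM with C646 (log2 -1.04 ± 0.17, adjusted p = 0.00760). In libraries of whole cultures, fewer cells of a cycle phase and less RNA per cell cannot be told apart.

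**Figure D4:**
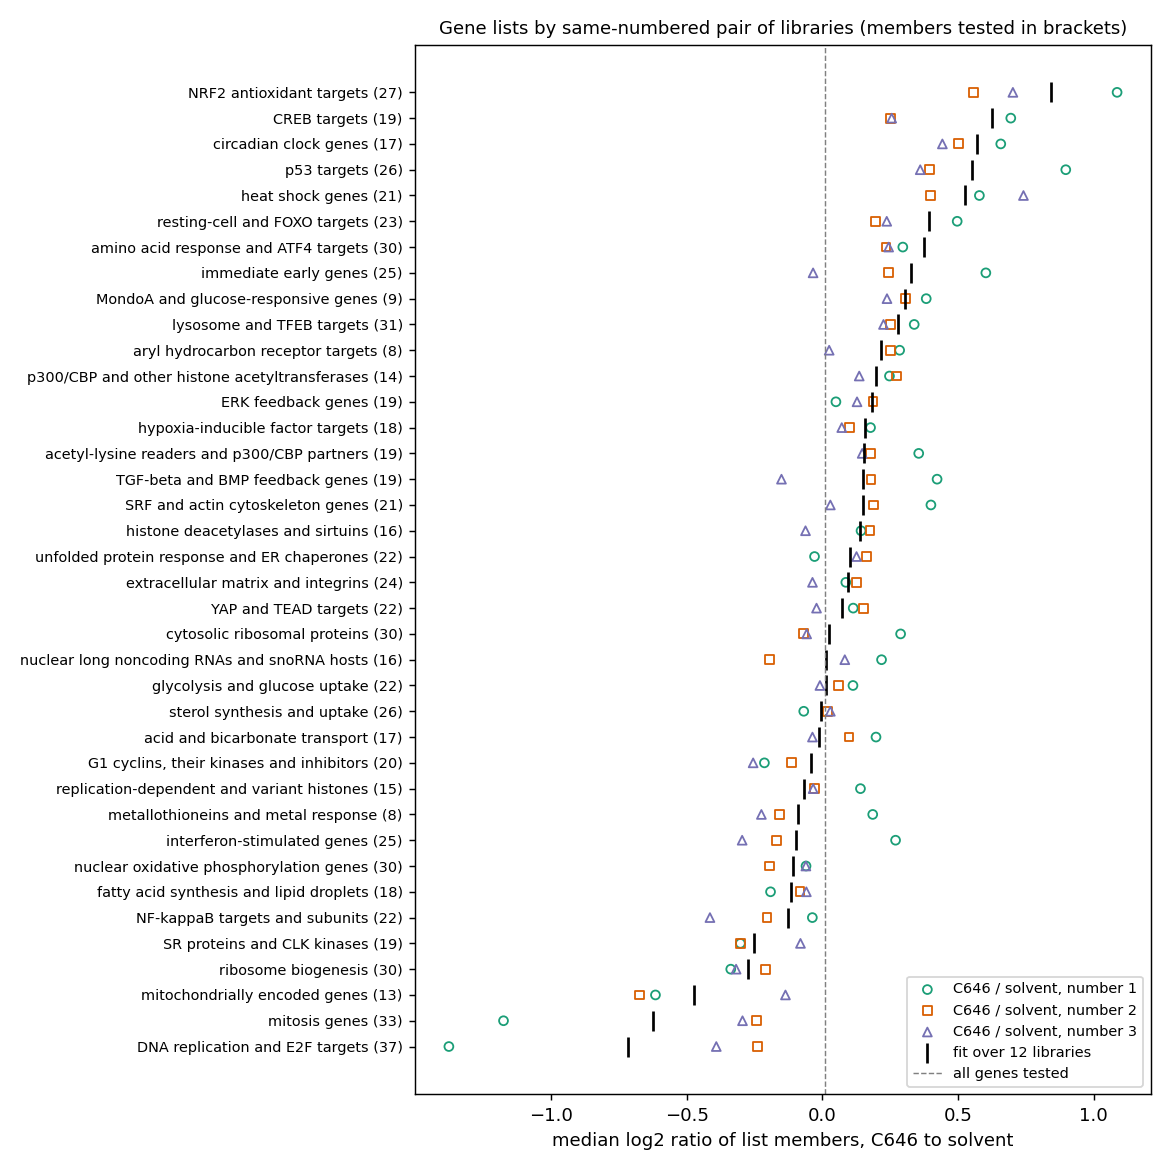
Median log2 ratio of C646 to solvent (x axis) over the members of each of 38 gene lists, within each of the 3 pairs of same-numbered libraries (open markers) and in the fit over 12 libraries (bars), with all genes tested as the dashed line. The NRF2, heat shock, p53 and clock lists lay to the right in all 3 pairs, while the replication and mitosis lists were far to the left in the first pair and nearer to 0 in the other pairs.

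Inflammatory genes driven by NF-kappaB were lower for a few members. Of 22 tested, CCL2 and BIRC3 fell (background 0.400%) and 4 fell with the block (background 3.73%). The median of the list was -0.13 (-0.05 with spike-in scaling, 0.01 with the block as well). CCL2, a monocyte chemokine, had 50.6, 40.7 and 50.3 CPM with solvent and 13.1, 12.2 and 14.6 CPM with C646 (log2 -1.83 ± 0.34, adjusted p = 0.0268). The C646 libraries were at the level of starved cells, 14.8, 12.2 and 21 CPM. BIRC3, an inhibitor of apoptosis, had 10.9, 5.63 and 7.44 CPM and 3.27, 2.18 and 2.97 CPM (log2 -1.51 ± 0.29, adjusted p = 0.0267).

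The cytokine genes IL1B and CXCL8 varied between numbers and passed with the block. IL1B had 43.3, 26.5 and 61.7 CPM with solvent and 16.2, 9.23 and 18.5 CPM with C646 (block log2 -1.55, adjusted p = 1.97e-04), and CXCL8 26.1, 20.8 and 45.6 CPM and 5.47, 8.35 and 21.8 CPM (block log2 -1.50, adjusted p = 0.00475). With DMA, CXCL8 stood at 45.2, 62.2 and 99.3 CPM, so C646 and DMA differed by -2.54 ± 0.48 (adjusted p = 0.0183). For IL1B the difference was -2.04 ± 0.43 (adjusted p = 0.0268). In all, 4 of the 22 were lower with C646 than with DMA (background 0.943%). The 4 falls with the block held without solvent replicate 1 by count, while without the block no member passed when solvent replicate 1 or any C646 library was left out.

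SMAD3, the signal transducer of TGF-beta and a known partner of p300 and CBP, had 229, 209 and 309 CPM with solvent and 132, 89.2 and 118 CPM with C646, without overlap (log2 -1.14 ± 0.24, adjusted p = 0.0423). Its levels with DMA, 222, 262 and 359 CPM, were close to those with solvent, and C646 differed from DMA by -1.31 ± 0.24 (adjusted p = 0.0144). In the same list of 19 TGF-beta and BMP feedback genes, BAMBI, a pseudoreceptor that dampens the pathway, rose by 1.28 ± 0.21, from 20.5, 21 and 20.9 to 46.6, 37 and 68.2 CPM, and SKI, a repressor of SMAD activity, by 0.59 ± 0.11, from 54.4, 62.2 and 72.2 to 96, 99.9 and 88.3 CPM. The immediate target SMAD7 was at 18.8, 24.7 and 24.6 CPM and 33.2, 41.5 and 31.8 CPM and passed with the block (adjusted p = 0.0149). Without solvent replicate 1, SMAD3, BAMBI and SKI passed only with the block (adjusted p = 0.127, 0.0757 and 0.122 without it, 0.0142, 0.0179 and 0.0383 with it), and so did SMAD3 and SKI when scaled by the spike-ins. The list had a median of 0.15.

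Among the other large falls, KRTAP2-3, a keratin-associated protein gene, went from 10.4, 11.3 and 11 CPM to 1.53, 1.53 and 1.05 CPM (log2 -2.98 ± 0.43, adjusted p = 0.00764). It passed without any single library, but 43.3% of its 31-base words occur in other genes, so it is uncertain which family member was read. MTSS1, an actin-binding membrane scaffold, fell by 1.50 with C646, from 7.13, 5.50 and 9.22 to 2.36, 1.65 and 3.70 CPM, and stood at 14.5, 10.8 and 17.4 CPM with DMA. The difference between C646 and DMA was -2.47 ± 0.34 (adjusted p = 0.00321). SHISA2, a regulator of FGF and WNT receptors, fell by 1.35, from 14.8, 14.7 and 17.8 to 5.51, 7.74 and 5.26 CPM, and stood at 5.48, 5.81 and 5.61 CPM with DMA (difference 0.13 ± 0.24). FAM167A fell by 1.61 and MB21D2 by 1.52. Without solvent replicate 1 the falls of MTSS1, SHISA2, FAM167A and MB21D2 passed only with the block (adjusted p = 0.156, 0.0659, 0.0958 and 0.0833 without it). With spike-in scaling the falls of MTSS1, SHISA2 and MB21D2, like that of BIRC3, passed only with the block.

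Ribosome biogenesis genes, which serum induces in growing cells, were lower by small amounts. Of 30 members 3 fell (NOLC1, NOP58 and DKC1, background 0.400%), 9 fell with the block (background 3.73%), none rose, and the median was -0.27. NOLC1, a nucleolar chaperone, had 249, 225 and 225 CPM in starved cells, 408, 378 and 388 CPM in solvent-refed cells and 227, 278 and 244 CPM with C646 (log2 -0.65 ± 0.10, adjusted p = 0.0114). NOP58, a core protein of box C/D particles, fell by 0.54 and DKC1, the pseudouridine synthase dyskerin, by 0.51. All 3 missed the threshold without solvent replicate 1 (adjusted p = 0.0627, 0.156 and 0.156) and passed with the block (0.0125, 0.0406 and 0.0420). With spike-in scaling no member passed in either fit and the median was -0.12, beside a median of all genes of 0.13. Genes for cytosolic ribosomal proteins had a median of 0.03, and 0 of 30 passed in either fit.

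SR splicing factors and CLK kinases had 6 falls of 19 with the block (background 3.73%) and none without it. In edgeR's test without the block 8 had an unadjusted p under 0.05, and DESeq2's Wald test called 5 lower. Of all 15263 genes tested, 2567 had such a p and DESeq2's test called 424 lower. With spike-in scaling none passed in either fit, and the median went from -0.25 to -0.12. SRSF7 had 165, 159 and 179 CPM with solvent and 88.6, 113 and 130.1 CPM with C646, and SRSF3 493, 465 and 493 CPM and 309, 360.4 and 372 CPM. Of the 13 protein-coding genes of the mitochondrial genome MT-ND3, a complex I subunit, fell (log2 -0.67 ± 0.14, 637, 744 and 622 CPM with solvent and 387, 466 and 407 CPM with C646, background 0.400%), 4 fell with the block (background 3.73%) and the median was -0.47. MT-ND3 did not pass with spike-in scaling (adjusted p = 1.00, 0.0622 with the block), and without solvent replicate 1 only with the block (0.121 and 0.0361). The DMA libraries had 371, 417 and 469.8 CPM of MT-ND3, a difference from C646 of 0.00 ± 0.14. Nuclear genes of oxidative phosphorylation had a median of -0.11, and none of 30 passed in either fit.

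**Figure D5:**
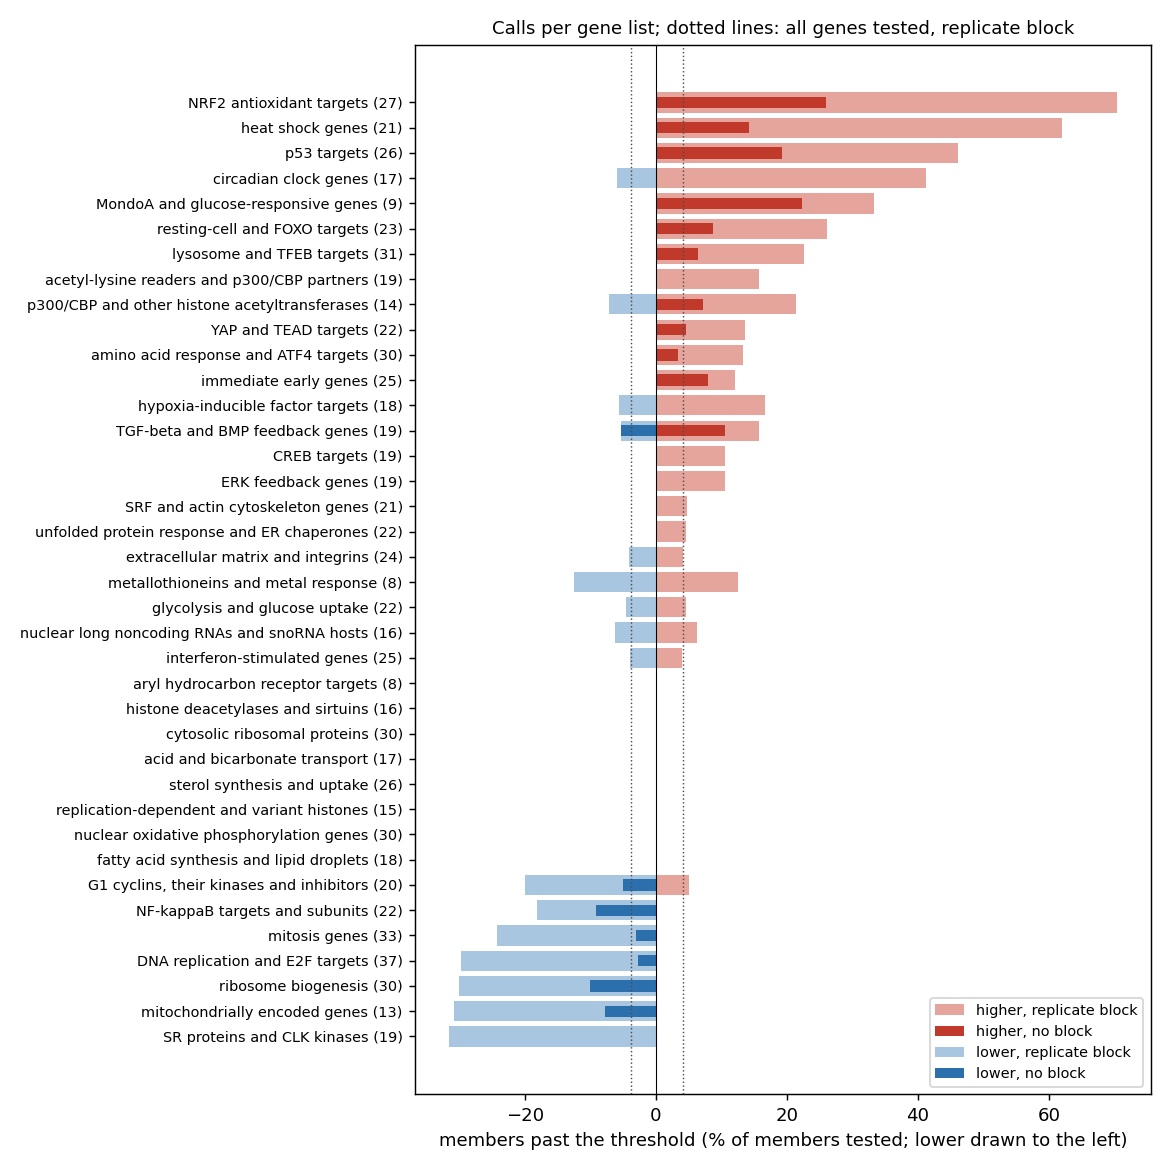
Share of the members tested (x axis, %) of each of 38 gene lists that were higher (right) or lower (left) with C646, in the fit without (narrow bars) and with the replicate block (wide bars), and the same shares over all genes tested (dotted lines, 4.12% higher and 3.73% lower with the block). The NRF2, heat shock and p53 lists reached furthest to the right, and the SR protein, mitochondrial, ribosome biogenesis and replication lists furthest to the left.

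RNAs of the enzymes C646 inhibits were measured as well. EP300 had 67.7, 81.5 and 83 CPM with solvent and 106, 111 and 91 CPM with C646, and CREBBP 46.1, 60.9 and 56.9 CPM and 84.9, 92.1 and 71.4 CPM. In neither gene did the groups overlap, and the changes were 0.41 ± 0.12 (adjusted p = 0.104, 0.0313 with the block) and 0.60 ± 0.17 (adjusted p = 0.0969, 0.0123 with the block). With DMA the levels were 125, 125 and 109.5 CPM and 89.1, 97 and 65.1 CPM, and C646 differed from DMA by -0.22 ± 0.12 and -0.02 ± 0.17. An mRNA level says nothing of the enzymes' activity.

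Of the 14 histone acetyltransferase genes NCOA3, a steroid receptor coactivator, rose (51.9, 45.6 and 51.6 CPM with solvent, 76, 68.8 and 70.9 CPM with C646, log2 0.53 ± 0.11, adjusted p = 0.0402). NCOA3 passed only with the block without solvent replicate 1 (adjusted p = 0.124 and 0.0390) or with spike-in scaling (0.920 and 0.00640). With the block 3 rose, EP300, CREBBP and NCOA3 (background 4.12%), and TAF1, a TFIID subunit with uncertain reads, fell (background 3.73%). EP300, CREBBP and TAF1 did not pass with the block in every fit that left out 1 library. Their adjusted p then reached 0.1747, 0.0846 and 0.1575. The other 10 (HAT1, KAT2A, KAT2B, KAT5, KAT6A, KAT6B, KAT7, KAT8, NCOA1 and NCOA2) passed in neither fit, with changes from -0.54 (HAT1) to 0.40 (NCOA2). None of 16 deacetylases and sirtuins passed in either fit, and of 19 acetyl-lysine readers and p300/CBP partners 3 rose with the block only, BRPF3 and HEXIM1 among them. HEXIM1, an inhibitor of the elongation factor P-TEFb, had 75.7, 122 and 101 CPM with solvent and 149.5, 155 and 129 CPM with C646.

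Early serum-response genes were for the most part not separated between C646 and solvent at 4 h. In the same edgeR fit, FOS was lower in solvent-refed than in starved cells (log2 -1.85, adjusted p = 0.00232). EGR1 (0.04, 0.948), MYC (-0.66, 0.0825) and JUN (0.55, 0.0621) did not pass between those groups. Whether C646 changed an earlier induction of these 4 genes was not tested. Of 25 immediate early genes BTG2 and IER5 rose (background 0.812%), SRF also passed with the block, and none fell. The list's median change was 0.33, with 19 positive, and its pair medians were 0.60, 0.24 and -0.03. Neither BTG2 nor IER5 passed without solvent replicate 1 (adjusted p = 0.140 and 0.161), and with the block IER5 did (0.0204). With spike-in scaling both passed only with the block. FOS had 1.65, 2.96 and 1.32 CPM with solvent and 2.74, 4.07 and 3.43 CPM with C646, EGR1 11.8, 17.1 and 18.9 CPM and 11.9, 15.9 and 16.7 CPM, JUN 61.1, 82.5 and 89.4 CPM and 67.7, 88.9 and 75 CPM and MYC 97.9, 109 and 82 CPM and 106, 93 and 52.7 CPM, and in all 4 genes the groups overlapped. Among 19 ERK feedback genes none passed, and IL11 and SPRED3 passed with the block. In edgeR's test without the block 4 had an unadjusted p under 0.05, and DESeq2's Wald test called 2. Of all 15263 genes tested, 2567 had such a p and DESeq2's test called 891. DUSP5, an ERK phosphatase, had 102, 106 and 119 CPM with solvent and 119, 115 and 162 CPM with C646, against 347, 420.2 and 382 CPM with DMA (C646 minus DMA -1.54 ± 0.14, adjusted p = 1.45e-04). Of the feedback genes 5 and of the immediate early genes 3 were lower with C646 than with DMA (background 0.943%).

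Metabolic lists showed few calls. Sterol synthesis (26 genes), fatty acid synthesis (18), aryl hydrocarbon receptor targets (8), histones (15) and acid and bicarbonate transport (17) had no call in either fit. Over these and the deacetylase, ribosomal protein and oxidative phosphorylation lists, 13 of 160 members had an unadjusted p under 0.05 in edgeR's test (19 with the block), and DESeq2's Wald test called none. Over all 15263 genes tested, 2567 had such a p (3847 with the block), and DESeq2's Wald test called 891. LDHA, lactate dehydrogenase A, was at 1041, 785 and 690.2 CPM with solvent and 675, 568 and 473 CPM with C646 and passed with the block (-0.55, adjusted p = 0.0170), the single fall among 22 glycolysis genes, beside a rise of the glucose carrier gene SLC2A3, whose reads are uncertain. VEGFA, the hypoxia-inducible growth factor, had 285, 432 and 225 CPM and 185, 248 and 114 CPM, with the second library highest in both groups, and passed with the block (-0.80, adjusted p = 0.00146). Of 25 interferon-stimulated genes 1 rose (STAT2) and 1 fell (IFIT3), both with the block only. Over all genes tested 4.12% rose and 3.73% fell with the block, and the single calls of the glycolysis and interferon lists are near those shares.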

How the data were processed

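Polyadenylated RNA of RPE-1 cells was sequenced from stranded libraries, per the labels' protocols. Reads were trimmed with Trimmomatic 0.36 and aligned with STAR 2.7.0e to GRCh38.p10, per the submitters' processing notes; the quantification program, the annotation behind it and how it treated strand are not stated in these sources. Each library has a table of transcripts with expected counts, TPM and effective lengths (another unit, in bases), as the authors deposited them, per the file headers. Expected counts were used. TPM and effective lengths served only for checks of the tables. Genes that overlap another gene's exons, or share 31-base words with other genes, by 20% or more are called uncertain.

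Expected counts of 181808 transcripts were summed per gene over GENCODE 29 and rounded, and 264 transcripts without a match and 92 spike-in sequences were left out of the tests. edgeR 4.0.16 (R 4.3.3) fitted all 12 libraries (filterByExpr with a minimum count of 10, TMM scaling, robust quasi-likelihood F-test, Benjamini-Hochberg threshold 0.05). DESeq2 1.42.0 was an alternative. The script was tested on simulated data. CPM are scaled by TMM, except for the marker sums, which are per 1000000 gene counts. Labels gave the groups. Same-numbered C646 and solvent libraries deviated together (correlations across genes 0.284 to 0.379, other numbers -0.254 to -0.0577), so values with the replicate block are given where they change a call or a count by over 1.5 times.

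Named genes were the 12 largest changes in each direction past the threshold (mean of at least 2 log2 CPM, no overlap of groups), a panel of 20 genes, from each of 38 lists up to 4 members per direction, and all acetyltransferases. Members and lists were chosen with earlier results of these data known. Alternatives were other scalings, filters, libraries in the fit, a fold threshold, the block and single libraries left out. Depth differed by less than 1.5 times among the compared libraries, and their number limits the precision. A few genes of the lists are not reported here by name.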

Additional observations from a re-analysis of the deposited data

How the results depend on the processing

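The counts of genes past the threshold (called, higher, lower) were 185, 124 and 61. With the replicate block they were 1199, 629 and 570, with DESeq2's Wald test 891, 467 and 424, without a filter on low counts 348, 214 and 134, with the block and only the 6 compared libraries 578, 346 and 232, and with the block and spike-in scaling 956, 818 and 138. With only the 6 compared libraries they were 71, 54 and 17, with spike-in scaling 100, 84 and 16, and against a log2 change of at least 0.5 they were 13, 12 and 1. Leaving out 1 library gave 24 to 135, 20 to 103 and 2 to 47, and with the block 259 to 1313, 184 to 744 and 75 to 569. With the block these were 321, 208 and 113 without solvent replicate 1, 499, 254 and 245 without solvent replicate 2, 700, 422 and 278 without C646 replicate 2 and 497, 310 and 187 without C646 replicate 3. The cause was not tested, except that fewer libraries enter some fits. DESeq2's size factors gave 179, 126 and 53, and at least 1 CPM in each library of a group gave 247, 169 and 78. No named gene called without the block changed sign under these alternatives. The medians of 15 of the 38 lists, from -0.13 to 0.10, changed sign under at least 1, and 3 of these lists held a call: NF-kappaB (0.01 with the block and spike-in scaling), G1 cyclins (0.06 with spike-in scaling) and YAP targets (-0.01 without C646 replicate 1). Block leave-outs other than solvent replicate 1, and the block with spike-in scaling, were chosen after seeing the data. Depth limits the low-level genes: 3 counts are 0.104 to 0.137 CPM in the compared libraries.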

Other observations

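Gene lists not described above had few calls. Over all genes tested the block fit called 4.12% higher and 3.73% lower, so 1 call in a list of this size is not read as a result. Of 19 CREB targets none passed without the block and 2 rose with it (PER1 and GEM), at a median of 0.62. In edgeR's test without the block 6 had an unadjusted p under 0.05, and DESeq2's Wald test called 0. Of all 15263 genes tested, 2567 had such a p and DESeq2's test called 891. Of 30 amino acid response and ATF4 targets SLC7A11 rose and 4 rose with the block, among them SESN2, CEBPB and PPP1R15A, at a median of 0.37. SESN2, a leucine sensor, had 15.3, 26.0 and 41.5 CPM with solvent and 55.6, 41.7 and 78.1 CPM with C646. Of 22 unfolded protein response genes ERN1 alone rose, with the block. Of 22 YAP and TEAD targets LATS2, a Hippo kinase, rose (0.60 on the log2 scale) and 3 rose with the block, at a median of 0.07. LATS2 did not pass without solvent replicate 1 (adjusted p = 0.176, 0.0621 with the block) and with spike-in scaling only with the block. Of 18 hypoxia-inducible factor targets 3 rose and 1 fell with the block, of 24 extracellular matrix and integrin genes TNC rose and ITGA5 fell with it, and of 21 SRF and actin genes SRF rose with it. Of 8 metallothionein and metal response genes SLC30A1 rose and MT1X fell, and of 16 long noncoding RNAs MEG3 rose and SNHG15 fell, all with the block only.

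Gene structure was described beside the calls, with no test. Of 13073 protein-coding genes tested 121 were higher and 59 lower with C646. Among the 2698 of them longer than 100 kb, 43 were higher and 11 lower. Among the 1005 shorter than 5 kb, 9 were higher and 9 lower. Of 302 protein-coding genes with a single exon block 4 were higher and 8 lower. Of 190 zinc-finger genes on chromosome 19 named ZNF, 1 was higher and none lower, at a median change of -0.08.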
